A study of Caenorhabditis elegans with 13 samples.

Results

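The genes described here are 9 core genes of the *C. elegans* sex determination pathway: *xol-1*, *sex-1*, *fox-1*, *her-1*, *tra-2*, *fem-1*, *fem-2*, *fem-3* and *tra-1*. They were chosen by name, and each matched a single row of the 46170 genes in the expression table. Expression was measured by mRNA-seq of whole L1 larvae that hatched overnight without food and then fed for 3 hours. All 4 groups were hermaphrodites. Strain N2, the wild type, was fed bacteria with the empty RNAi vector (3 libraries) or with *dpy-27* dsRNA, a treatment named *dpy-27(RNAi)* (4 libraries). Strain RB2301, which carries *cec-4(ok3124)*, and strain EKM99, which carries both *met-2(n4256)* and *set-25(n5021)*, were given the empty vector (3 libraries each), and each mutant was represented by that 1 strain. N2 on vector RNAi, called the vector control below, is the shared control of all 3 comparisons, which are therefore not independent of each other. The deposited values are 1 mean FPKM per group (fragments scaled by transcript length and by library size), so they give no spread between libraries, and the differences below stand without a test or a p-value.

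In *C. elegans*, sex is set in the embryo by the ratio of X chromosomes to autosomes. X-linked signal elements such as SEX-1 and FOX-1 keep the switch gene *xol-1* off in XX animals, and with *xol-1* off the SDC proteins bring the dosage compensation complex (DCC) to the X chromosomes and repress the autosomal gene *her-1*. HER-1 is a secreted male-promoting ligand that blocks the receptor TRA-2, TRA-2 blocks the FEM proteins, the FEM proteins send the transcription factor TRA-1 for degradation, and TRA-1 directs hermaphrodite development. DPY-27 is a condensin subunit of the DCC, CEC-4 is a chromodomain protein that anchors methylated heterochromatin at the nuclear periphery, and MET-2 and SET-25 are methyltransferases of histone H3 lysine 9. In the study these groups served to ask how loss of heterochromatin anchoring or of DCC function affects gene expression, on the X chromosomes above all.

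The mutated genes were lower in the strains that carry the mutations. *cec-4* was at 18.2 FPKM in the vector control and 7.02 in *cec-4* mutants, *set-25* at 8.93 and 4.15 in *met-2 set-25* mutants, and *met-2* at 17.7 and 13.7 there. *dpy-27* mRNA was at 32.3 FPKM in the vector control and 31.6 in the group labelled *dpy-27(RNAi)*, so its mRNA level does not show the knockdown. The study describes this RNAi as a partial depletion. It reports a reduced level of DPY-27 protein, which mRNA-seq does not measure, and infers partial loss of DCC function from the low lethality. X-linked genes in that group had a median log2 difference of 0.18 from the vector control and autosomal genes one of 0.022. The larvae expressed muscle, pharynx, intestine and neuron markers in every group, while the summed level of 6 sperm markers was at most 1.31 FPKM, that of 6 embryonic markers at most 0.453 and that of 6 yolk genes at most 0.557. The summed level of 5 germ line markers was 33.0 FPKM in the vector control, 40.9 in *dpy-27(RNAi)*, 26.8 in *cec-4* mutants and 205 in *met-2 set-25*. Most of each sum was *glh-1*, at 25.5, 26.75, 17.4 and 168 FPKM in that order. In *cec-4* mutants the sum was lower than in the vector control, while *pgl-1*, *pgl-3* and *deps-1* were each higher. In whole larvae, fewer cells of a type and less RNA per cell cannot be told apart.

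The members covered a wide range of levels. In the vector control *tra-1* was the most abundant at 49.5 FPKM, above 82.7% of the 16438 genes whose mean over the 4 groups was over 1 FPKM. *fox-1* (29.4 FPKM), *tra-2* (26.01), *fem-1* (24.2) and *fem-2* (20.7) formed a middle group, *sex-1* was at 7.33, and *fem-3* (3.57) and *her-1* (3.46) were near each other at the low end. *xol-1* stood apart at 0.234 FPKM, a level below all but 3.86% of those genes. FPKM is scaled by gene length, so these levels can be set side by side.

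**Figure D1:**
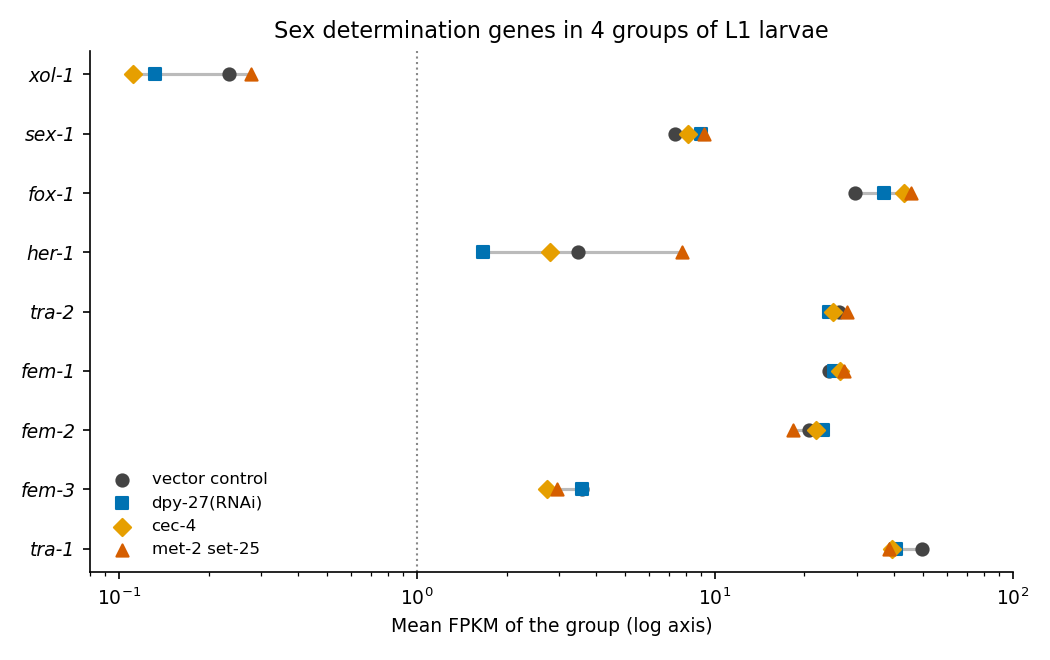
Mean FPKM (log axis) of the 9 members in the 4 groups, each symbol the mean of 1 group, with the grey line from the lowest to the highest group and the dotted line at 1 FPKM. The 4 symbols of *tra-2* and *fem-1* nearly coincide, those of *her-1* run from 1.66 to 7.73 FPKM, and all of *xol-1* lie under 0.3 FPKM.

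Genes were compared on the log2(FPKM + 0.1) scale, among those whose mean of the 2 groups compared was above 1 FPKM, and a gene was counted as past the fold when it differed by more than 0.5 on that scale (a fold of 1.41). The 0.1 FPKM added to each value shrinks the differences of low genes. Of the 9 members, 8 passed this filter in every comparison and *xol-1* passed in none. In *dpy-27(RNAi)*, 0 members were higher and 1 was lower (*her-1*), against 16.7% of 15942 genes higher and 10.4% lower. In *cec-4*, 1 member was higher (*fox-1*) and 0 were lower, against 27.3% of 16118 genes higher and 14.5% lower. In *met-2 set-25*, 2 members were higher (*fox-1* and *her-1*) and 0 were lower, against 25.7% of 16099 genes higher and 19.4% lower. The share of the 8 members past the fold was smaller each time than that of all genes tested, which include non-coding ones. Of protein-coding genes alone, 12.9% were higher and 7.46% lower in *dpy-27(RNAi)*. For *cec-4* these shares were 23.6% and 12.8%, and for *met-2 set-25* 21.5% and 18.2%. Counts of 1 or 2 among 8 genes are too small to set the members apart from other genes. The median log2 difference of the 8 members was 0.033, 0.0089 and 0.13 in *dpy-27(RNAi)*, *cec-4* and *met-2 set-25*, beside 0.044, 0.13 and 0.071 over all genes tested.

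**Figure D2:**
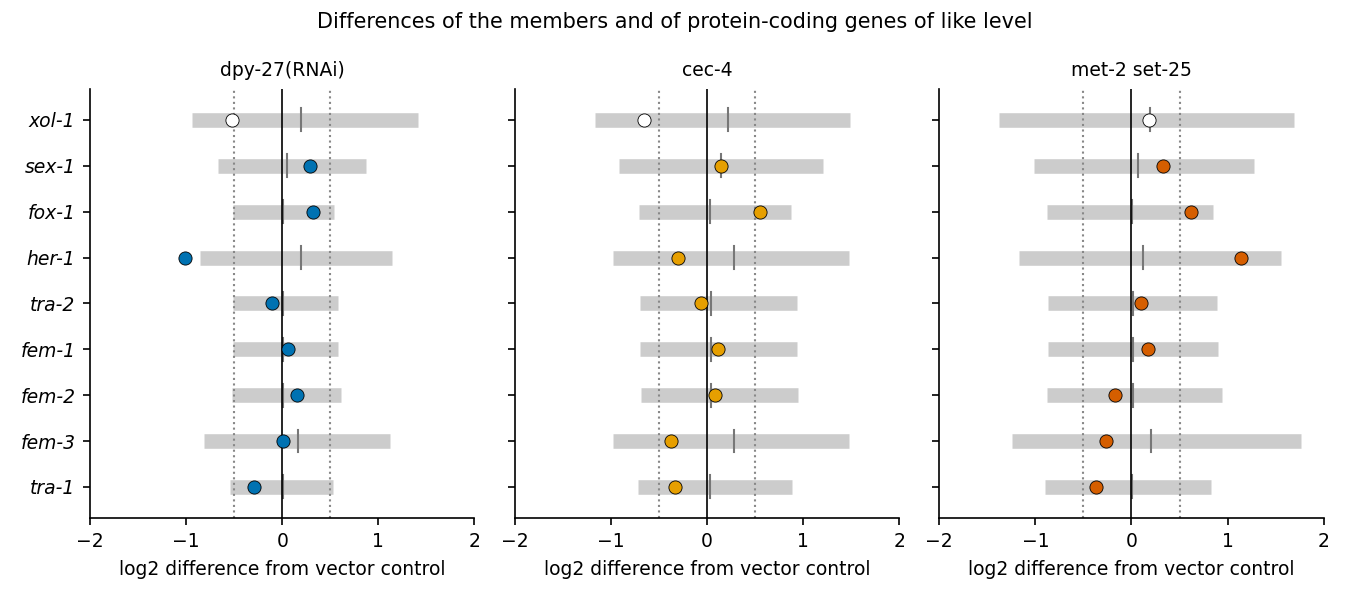
Log2 difference of each member from the vector control, on the log2(FPKM + 0.1) scale, in the 3 comparisons. Grey bars hold the central 90% of protein-coding genes whose level lies within a factor of 2 of the member's, grey ticks their median, dotted lines the fold of 0.5, and the open symbol *xol-1*, which was under 1 FPKM. Of the filled symbols, *her-1* in *dpy-27(RNAi)* at -1.01 is the one outside its bar, and among all genes of like level it was inside (-1.62 to 2.83).

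At the top of the pathway, the switch gene *xol-1* (WBGene00006962, X:8041313-8044409, plus strand) was listed at 0.234 FPKM in the vector control, 0.132 in *dpy-27(RNAi)*, 0.112 in *cec-4* mutants and 0.279 in *met-2 set-25*. XOL-1 promotes male fate and is made in XO embryos. Its exons cover 2459 bp, so the control level times the exon length comes to only 0.576 fragments per unit of library size (the M of FPKM), and at that level no difference between groups can be read. In all 4 groups it stayed under 0.3 FPKM, well below every other member.

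The signal elements *sex-1* and *fox-1* were slightly to moderately higher in all 3 groups than in the vector control, while *ceh-39*, an X-linked signal element outside the 9 members, differed by -0.06, -0.29 and 0.23. *sex-1* (WBGene00004786, X:10201329-10205421, minus strand) encodes a nuclear hormone receptor that represses transcription of *xol-1*. It was at 7.33 FPKM in the vector control, 8.97 in *dpy-27(RNAi)*, 8.14 in *cec-4* mutants and 9.21 in *met-2 set-25*, with log2 differences of 0.29, 0.15 and 0.32. None of them was past the fold, and the highest group was 1.25-fold over the lowest.

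*fox-1* (WBGene00001484, X:2445117-2459893, minus strand) encodes an RNA-binding protein that acts on the splicing of *xol-1*. It was at 29.4 FPKM in the vector control, 36.9 in *dpy-27(RNAi)*, 43.2 in *cec-4* mutants and 45.4 in *met-2 set-25*. The log2 differences were 0.32, 0.55 and 0.62, or folds of 1.25, 1.47 and 1.54, and those of both mutants were past the fold. Relative to the median of all genes tested, which was 0.13 in *cec-4* mutants, *fox-1* was higher by 0.42 there and no longer past the fold. Among protein-coding genes within a factor of 2 of its level, 88.5%, 85.8% and 90.01% had a lower difference, so *fox-1* lay on the high side of its peers in each comparison while staying inside their central 90%. The mutant groups were near each other, *met-2 set-25* being 1.05-fold over *cec-4*. The ratio of *fox-1* to *sex-1* was 4.02 in the vector control, 4.11 in *dpy-27(RNAi)*, 5.30 in *cec-4* mutants and 4.93 in *met-2 set-25*.

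Both genes lie on X, and X-linked genes as a whole were higher too. The median log2 difference of X-linked genes tested was 0.18, 0.28 and 0.18 in the 3 comparisons, and that of autosomal genes 0.022, 0.096 and 0.044. Relative to the X-linked median, *fox-1* was higher by 0.14, 0.27 and 0.44, while *sex-1* in *cec-4* turned to -0.13. The protein-coding neighbours of *fox-1* went both ways. The 4 nearest (*T07D1.2*, *T07D1.3*, *R04B3.1* and *R04B3.2*) ranged from -0.25 to 0.39 in *dpy-27(RNAi)*, from -0.78 to 1.02 in *cec-4* mutants and from -1.13 to 0.47 in *met-2 set-25*. The 0.39 was that of *R04B3.1*, which was under 1 FPKM in every group. The next highest in *dpy-27(RNAi)* was *T07D1.2*, at 0.26. Summed markers of body wall muscle (1597 FPKM in the vector control, then 1899, 2437 and 2381) and of neurons (171, then 212, 234.6 and 227) were higher in the same 3 groups. Past the fold were 0, 3 and 2 of 3 muscle genes and 0, 2 and 2 of 4 neuronal genes. Of all genes tested, 16.7%, 27.3% and 25.7% were higher past the fold. Summed pharynx markers were higher too (428, then 720, 620 and 756). Those of intestine were not (69.1, then 61.3, 66.2 and 67.6), nor were those of hypodermis. The part of these markers in the level of *fox-1* was not tested. The libraries did not keep the strand, and short non-coding genes annotated within *fox-1* share its reads only over 9 bp of exon.

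*her-1* was the member that varied by far the most. This gene (WBGene00001842, V:9697015-9702035, plus strand) is the autosomal target through which the SDC proteins set sexual fate in XX animals. It was at 3.46 FPKM in the vector control, 1.66 in *dpy-27(RNAi)*, 2.80 in *cec-4* mutants and 7.73 in *met-2 set-25*. The group mean was thus lowest in the group labelled *dpy-27(RNAi)*, somewhat below the control in *cec-4* mutants and highest in *met-2 set-25*.

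The differences of *her-1* from the vector control were -1.01, -0.30 and 1.14 on the log2(FPKM + 0.1) scale. On that scale the control was 2.02-fold over *dpy-27(RNAi)*, *met-2 set-25* was 2.198-fold over the control, and *met-2 set-25* was 4.44-fold over *dpy-27(RNAi)* and 2.70-fold over *cec-4*. In *dpy-27(RNAi)*, 3.5% of 2600 protein-coding genes of like level had a lower difference, and *her-1* lay outside their central 90%, which ran from -0.85 to 1.14. Among all 3941 genes of like level, non-coding ones included, 8.45% had a lower difference and *her-1* lay inside the central 90%, which ran from -1.62 to 2.83. The set limited to protein-coding genes was chosen after seeing the data. In *met-2 set-25* it was inside the corresponding range of 3301 genes, -1.17 to 1.56, with 91.6% of them lower, and 85.2% lower among all genes of like level. The range of 4.44-fold over the 4 groups exceeded that of 87.4% of the other 16437 genes over 1 FPKM, of 96.0% of 13182 protein-coding genes and of 92.2% of the 2919 at a like level, whose median was 1.71-fold. Its exons cover 1127 bp, so the control level times the exon length comes to 3.90 fragments per unit of library size, and relative counting error is larger here than for the abundant members.

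The genes next to *her-1* did not share its pattern. The 4 nearest protein-coding genes on chromosome V (*ztf-9*, *ZK287.7*, *xbx-6* and *tag-120*) differed by -0.19 to 0.13 in *dpy-27(RNAi)*, -0.38 to 0.28 in *cec-4* mutants and -0.21 to 0.08 in *met-2 set-25*. The 3 genes whose 4 centred log2 values were most like those of *her-1*, by Euclidean distance among 16437 genes, were the non-coding genes *W03G1.11* (distance 0.042), *R07E4.7* (0.11) and *F54H5.8* (0.12). Among 13182 protein-coding genes the nearest was *catp-3*, at 41.5, 18.0, 36.0 and 88.6 FPKM in the order above (distance 0.20), followed by *pho-9* (0.34) and *Y39G10AL.1* (0.37). Likeness over 4 group means is a weak description. In *met-2 set-25* the summed germ line markers were also higher (205 against 33.0 FPKM). They were at 26.8 FPKM in *cec-4* mutants and, above the control, at 40.9 in *dpy-27(RNAi)*, where *her-1* was lowest. The part of these markers in the level of *her-1* was not tested.

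**Figure D3:**
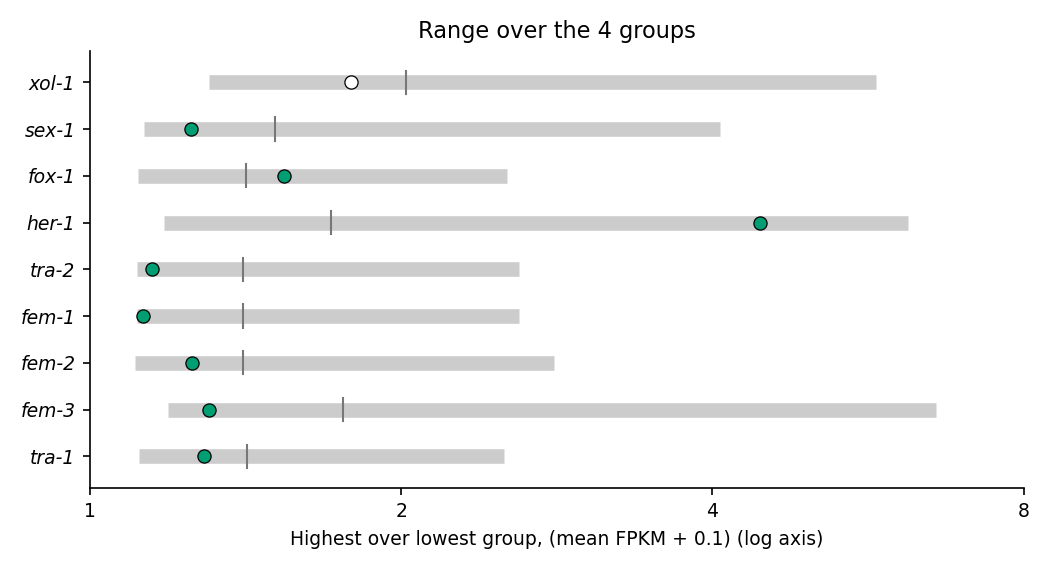
Highest over lowest of the 4 group means, as (FPKM + 0.1) on a log axis, for each member (green, *xol-1* open). Grey bars hold the central 90% of protein-coding genes whose 4-group mean is within a factor of 2 of the member's, and grey ticks their median. *her-1* stands at 4.44, *fox-1* at 1.54, and the remaining filled symbols between 1.13 and 1.30, each to the left of its tick.

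In FPKM as deposited, the receptor gene *tra-2* and the FEM gene *fem-1* had some of the narrowest ranges among genes over 1 FPKM. Those of *fem-2*, *fem-3* and *tra-1* were less narrow. With each group scaled to the same total this order did not hold, as given below. *tra-2* (WBGene00006605, II:6955384-6965673, minus strand) encodes the membrane receptor that HER-1 binds. It was at 26.01 FPKM in the vector control, 24.2 in *dpy-27(RNAi)*, 24.9 in *cec-4* mutants and 27.8 in *met-2 set-25*, with log2 differences of -0.10, -0.06 and 0.09. Its highest group was 1.15-fold over its lowest, a smaller range than in all but 6.51% of protein-coding genes. The same share was 4.57% for *fem-1*, 18.8% for *fem-2*, 24.8% for *fem-3* and 22.96% for *tra-1*. Among protein-coding genes of like level it was 9.89% for *tra-2*, 6.75% for *fem-1*, 26.8% for *fem-2*, 12% for *fem-3* and 30.2% for *tra-1*. Reads in the 26 bp of exon that *tra-2* shares with *ceh-38* on the other strand cannot be assigned to either.

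The FEM genes encode the proteins that inactivate TRA-1 with the ubiquitin ligase subunit CUL-2. *fem-1* (WBGene00001411, IV:5533140-5537962, minus strand), the ankyrin repeat member, was at 24.2, 25.2, 26.3 and 27.2 FPKM in the vector control, *dpy-27(RNAi)*, *cec-4* and *met-2 set-25*. Its range of 1.13-fold was the narrowest of the 8 in FPKM as deposited. *fem-2* (WBGene00001412, III:632019-634626, minus strand), a protein phosphatase, was at 20.7, 22.99, 21.9 and 18.3 FPKM in the same order. *fem-3* (WBGene00001413, IV:9104966-9107607, plus strand), which acts with FEM-1 and FEM-2, was at 3.57, 3.59, 2.74 and 2.95 FPKM. *fem-1* and *fem-2* differed from the control by at most 0.18 on the log2 scale in either direction, and *fem-3* by 0.0081, -0.37 and -0.27.

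*fem-3* and *her-1* had nearly the same level in the vector control, which sets their ranges side by side. *fem-3* spanned 1.30-fold over the 4 groups and *her-1* 4.44-fold. In *cec-4* both were lower than the control, by -0.37 and -0.30, and in *met-2 set-25* they went opposite ways.

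*tra-1* (WBGene00006604, III:11170890-11195201, minus strand) encodes the zinc finger protein at the end of the pathway. It was at 49.5 FPKM in the vector control, 40.5 in *dpy-27(RNAi)*, 39.4 in *cec-4* mutants and 38.4 in *met-2 set-25*. The log2 differences were -0.29, -0.33 and -0.37, none past the fold. All 3 groups lay below the control and within 1.06-fold of each other, so the step is between the shared control mean and the rest. Of protein-coding genes of like level, 12.7%, 22.8% and 23.4% had a lower difference. The hypodermal transcription factor gene *nhr-23* was lower in the same 3 groups, at 17.4 FPKM in the vector control, then 9.45, 11.8 and 10.3, and the summed level of 4 hypodermal markers was 19.2, then 10.4, 13.2 and 11.5. Only *nhr-23* and, in *met-2 set-25*, *dpy-7* of these 4 passed the filter, and their part in the level of *tra-1* was not tested.

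Ratios between interacting members moved mainly with *her-1*. The mRNA ratio of ligand gene to receptor gene, *her-1* over *tra-2*, was 0.133 in the vector control, 0.0688 in *dpy-27(RNAi)*, 0.113 in *cec-4* mutants and 0.278 in *met-2 set-25*. *tra-2* over *fem-3*, a pair whose balance sets sexual fate in the germ line, was 7.28, 6.73, 9.09 and 9.40 in the same order. *tra-1* over *fem-3* was 13.9, 11.3, 14.4 and 13, and *fem-1* over *fem-2* was 1.17, 1.10, 1.2 and 1.49. By mRNA level in whole larvae, *tra-2* exceeded *her-1* and *tra-1* exceeded *fem-3* in every group. The proteins were not measured.

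Other genes of sex determination were described from 5 lists of 40 genes, 37 of which were found by name. Of them 32 passed the filter in *dpy-27(RNAi)*, with 6 higher and 1 lower, 32 in *cec-4*, with 5 higher and 2 lower, and 33 in *met-2 set-25*, with 10 higher and 2 lower. Their median log2 differences were 0.038, 0.14 and 0.20. Like the members, these counts stand beside the shares of all genes given above.

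The SDC genes, signal elements and partners of the core genes were mostly within the fold, as were most of all genes tested. The SDC genes *sdc-1*, *sdc-2* and *sdc-3*, whose products repress *her-1*, ranged from -0.22 to 0.33 over the 3 comparisons. Of the signal elements, *sea-2*, an autosomal activator of *xol-1*, was at 36.4 FPKM in the vector control and 51.7 in *cec-4* (0.50), the X-linked *ceh-39* was within the fold and *sea-1* was under the filter. Of 6 partners of the core genes, *sup-26*, an RNA-binding repressor of *tra-2*, was at 613 FPKM in the vector control and 907 in *met-2 set-25* (0.57), and *rpn-10*, a proteasome subunit, at 67.8 and 44.7 (-0.60). *tra-3*, *tra-4*, *cul-2* and *sel-10* were within the fold throughout.

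Genes of sexual fate downstream of the pathway differed in their own ways. *egl-1*, a cell death activator that TRA-1 represses in specific neurons, was at 3.33 FPKM in the vector control, 1.97 in *dpy-27(RNAi)*, 2.0 in *cec-4* mutants and 2.87 in *met-2 set-25*. *mab-23*, a DM domain gene of male development, was at 1.069, 1.41, 2.76 and 1.73 FPKM, higher by 1.29 in *cec-4* mutants and 0.65 in *met-2 set-25*. *dmd-4*, another DM domain gene, was at 3.81, 5.88, 5.67 and 4.16 FPKM, higher by 0.61 in *dpy-27(RNAi)* larvae and by 0.56 in *cec-4*. *ceh-30*, which protects male-specific neurons from death, was at 1.99 FPKM in the vector control and 2.92 in *cec-4* (0.53). The DM domain genes *mab-3* and *dmd-3* were under the filter in every comparison.

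The widest differences in the lists were among genes of germ line sex in *met-2 set-25*, with 8 of 18 higher and 1 lower. Of all 16099 genes tested in that comparison, 25.7% were higher and 19.4% lower. The 8 were low in the vector control, from 0.511 FPKM (*fbf-1*) to 6.22 (*gld-1*), and low genes spread widely. *fbf-1* and *fog-2* were under 1 FPKM in the vector control and passed the filter only through their level in *met-2 set-25*. The filter thus let them be counted as higher but hardly as lower. The range given above for protein-coding genes at the level of *her-1* was -1.17 to 1.56 in *met-2 set-25*. No such range was taken at the levels of these 8 genes. *fog-2*, which represses *tra-2* translation together with GLD-1, was at 0.858 FPKM in the vector control and 11.1 in *met-2 set-25* (3.54). *gld-1* was at 6.22 and 23.6 FPKM (1.90), and *rnp-8*, an RNA-binding partner of germ line poly(A) polymerase, at 1.04 and 6.71 (2.58). *fbf-1*, *fbf-2*, *fog-1*, *puf-8* and *daz-1* were higher by 1.85, 1.05, 1.04, 1.02 and 0.61. *fbf-1* and *fbf-2* are near-identical copies, as are *fog-2* and its paralogs, so reads may be split between copies and these values are uncertain.

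These genes were higher in the group whose germ line markers were also higher. *glh-1* was at 25.5 FPKM in the vector control and 168 in *met-2 set-25*, *pgl-1* at 3.45 and 25.03, and *pgl-3* at 1.10 and 7.21, while *nos-2*, a marker of the earliest germ cells, was at 0.645 and 0.624. Of the 5 markers, 4 passed the filter and all 4 were higher there, and their part in the germ line sex genes was not tested. In *dpy-27(RNAi)*, 5 of 17 germ line sex genes were higher and 0 lower, against 16.7% and 10.4% of all genes tested. The 5 were *puf-8* (1.16), *fog-2* (0.80), *gld-3* (0.60), *fog-1* (0.56) and *daz-1* (0.56). *fog-2*, at 0.858 FPKM in the vector control, passed the filter only through its level of 1.56 in *dpy-27(RNAi)*. There, 3 of 4 germ line markers were higher too. In *cec-4*, 1 of 17 was higher (*puf-8*, 0.81) and 1 lower (*mog-2*, -0.75), against 27.3% and 14.5% of all genes tested. The germ line markers went both ways there. *glh-1* was lower (-0.55), and *pgl-1* (0.39), *pgl-3* (0.26) and *deps-1* (0.41) were higher but within the fold. *mog-2*, a splicing factor gene of the sperm-to-oocyte switch, was also lower in *met-2 set-25*, with 39.8 FPKM in the vector control, 33.4 in *dpy-27(RNAi)*, 23.7 in *cec-4* mutants and 22.5 in *met-2 set-25*.

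**Figure D4:**
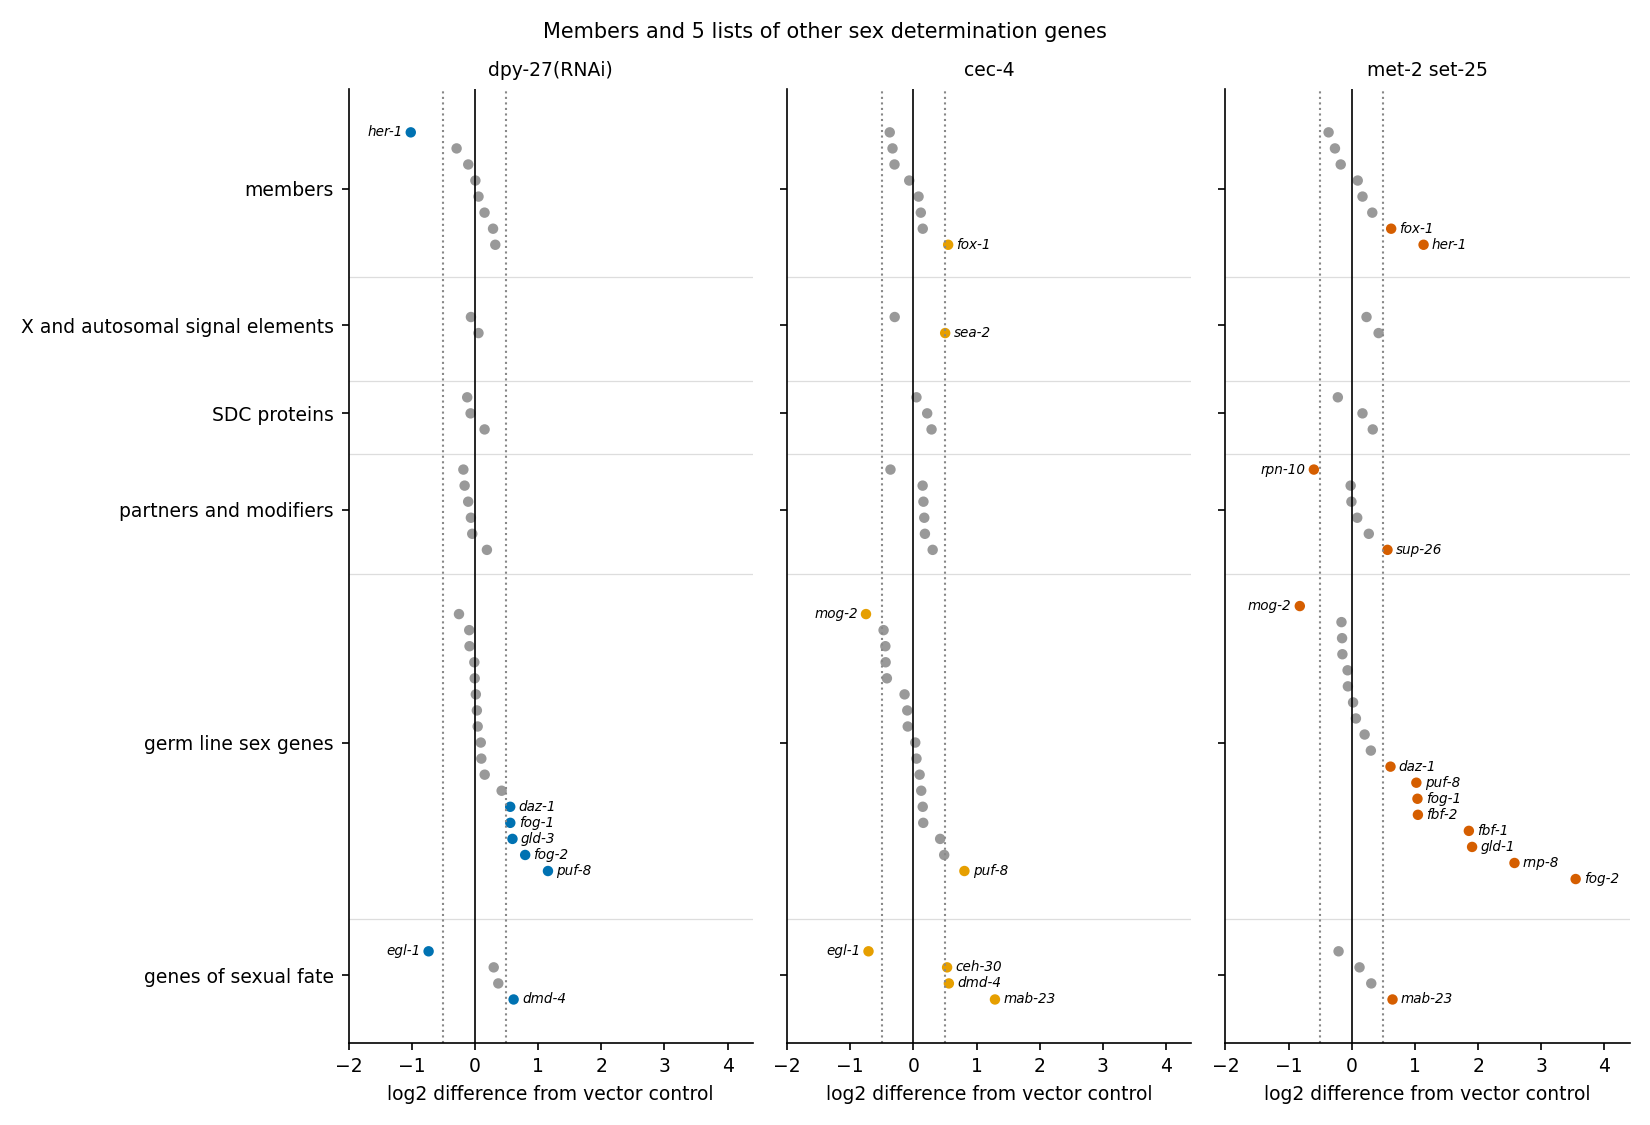
Log2 difference from the vector control, on the log2(FPKM + 0.1) scale, of the members and of the 5 lists of other sex determination genes that passed the filter. Each dot is 1 gene, sorted within its list, and coloured and named where past the dotted lines at 0.5 in either direction. The right-hand tail of the germ line list in *met-2 set-25* reaches 3.54 for *fog-2*, while the members reach 1.14 for *her-1*.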

How the data were processed

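Strains, treatments and library numbers were taken from the labels and the study's methods. The authors prepared non-stranded mRNA-seq libraries, trimmed reads with Trim Galore, aligned them to WS235 with TopHat 2.0.13 and quantified genes in Cufflinks 2.2.1. In the deposited table FPKM stands as 1 mean per group (4 columns, 13 libraries). No value per library was used (0 columns), the depth of each library is not in the values used here, and precision cannot be stated. A second deposited table holds fold changes and adjusted p-values of the authors' own DESeq2 1.6.3 comparisons and was not used.

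Differences were taken on log2(FPKM + 0.1) for genes whose mean of the 2 groups was above 1 FPKM, with a fold of 0.5. Named genes were all 9 members, the targeted genes, every gene of the 5 lists past the fold, and the 3 genes most like the member with the widest range. The members and lists were chosen with earlier results of these data known. Positions came from WBcel235, the assembly of WS235, as annotated in Ensembl release 115, where 45871 of 46170 IDs were found and 299 were not. A planned look at proteins and promoters was not run, and sequences were not analysed here. Alternatives were other folds, pseudocounts and filters and 2 recentrings. Scaling each group to the same total, recentring on protein-coding genes, and the protein-coding genes of like level and likeness were added after seeing the data. Calculations used Python 3.11.15, numpy 2.4.6, pandas 2.3.3 and matplotlib 3.10.9, and were tested on simulated data.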

Additional observations from a re-analysis of the deposited data

How the results depend on the processing

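The count of members past the fold in *dpy-27(RNAi)* was 1, and became 2 at a fold of 0.3 or with no filter and 0 with both groups above 5 FPKM. In *cec-4* it was 1, and became 3 at a fold of 0.3, 2 with no filter, and 0 at a fold of 1 or minus the median of protein-coding genes. Minus the median of all genes it stayed 1, with *fem-3* (-0.50) in place of *fox-1* (0.42). In *met-2 set-25* it was 2, and became 4 at a fold of 0.3, 1 at a fold of 1, 1 above 5 FPKM, and 3 (with *sex-1*, 0.52) with each group scaled to the same total. That scaling moved the median of all genes to 0.24 in *cec-4* mutants and 0.27 in *met-2 set-25* mutants. The median of the members became 0.13 and 0.33, and the share of genes past the fold that were higher went from 65.2% to 76.5% and from 57.0% to 73.1%. Minus the median of all genes, those shares were 50.9% and 50.3%. The median of the members in *cec-4* was -0.12 minus the median of all genes and -0.095 minus that of protein-coding genes. *fox-1* stayed higher and *tra-1* lower than the control in all 3 comparisons, and *her-1* lower in *dpy-27(RNAi)* and *cec-4* and higher in *met-2 set-25*, under each pseudocount, recentring and scaling run. With each group scaled to the same total, *fem-1* differed from the control by 0.078, 0.24 and 0.36 in the 3 comparisons. *tra-2* then differed by -0.085, 0.054 and 0.29, and *fem-2* by 0.17, 0.20 and 0.019. The narrower ranges of *fem-1* and *tra-2* than of *fem-2* thus rest on FPKM as deposited. Signs of differences under 0.18 turned for *fem-1*, *fem-2*, *fem-3*, *tra-2*, *sex-1* and *xol-1* in some settings. No paired analysis was possible because the table holds group means only, and no library could be left out.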

Other observations

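Some members had neighbours that differed more from the control than they did. The genes on either side of *fem-2*, *T19C3.6* (498 bp away) and *T19C3.7* (267 bp away), were higher in *met-2 set-25* by 0.89 and 1.06 on the log2 scale and in *cec-4* by 1.17 and 0.93, while *fem-2*, between them, differed by -0.18 and 0.08. The levels of *T19C3.6* were low, 1.79 FPKM in the vector control, 4.16 in *cec-4* mutants and 3.40 in *met-2 set-25* mutants. Those of *T19C3.7* were lower still, at 1.04, 2.07 and 2.28 FPKM in the same order. Left of *xol-1*, the protein-coding genes *C34D10.1* and *C34D10.2* were higher in *met-2 set-25* by 0.84 and 0.97, while *xol-1* stayed under 0.3 FPKM. Next to *fem-1*, *drp-1*, which encodes a mitochondrial fission protein, differed by 0.08, -0.04 and 0.18 in the 3 comparisons, in the same narrow range as *fem-1* itself. These genes were singled out after their values were seen.

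The ratio of *tra-1* to *her-1*, the end of the pathway against its secreted signal, was 14.3 in the vector control, 24.4 in *dpy-27(RNAi)*, 14.1 in *cec-4* mutants and 4.96 in *met-2 set-25* mutants. *fog-3*, a gene of germ line sex that promotes sperm fate, was at 0.58 FPKM in the vector control, 1.21 in *dpy-27(RNAi)*, 1.03 in *cec-4* mutants and 0.657 in *met-2 set-25* mutants, under the filter throughout.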
